A study of Mus musculus with 12 samples.

Results

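The genes described here are 10 genes known for their expression in the cerebellum, namely Pcp2, Cbln1, Cbln3, Car8, En2, Neurod1, Zic1, Barhl2, Gabra6 and Calb1, in RNA from mouse brains labelled as whole brain. They were taken by symbol from a table of 19775 genes, and 9 of the 10 were matched to a row. Gabra6 (ENSMUSG00000020428, chromosome 11, 42306437 to 42321072, minus strand, GRCm38) was matched to no row of the table used here and was not analysed here. The list was proposed, in part selected on their levels, by a reading of the normalized counts of these same 12 mice, so the levels below are a description and were not tested. The question was how much cerebellar RNA the 12 libraries hold, as read from these genes, and whether it varied between mice or genotypes. The mice were males of the C57BL/6N strain at about postnatal day 120. There were 4 wild-type mice (WT), 4 heterozygous Slc6a20a+/- mice (HT) and 4 homozygous Slc6a20a-/- mice (HM), 1 library per mouse. The mutant allele lacks an exon of Slc6a20a, a transporter of proline and glycine, in the whole animal.

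The cerebellar cortex is built around Purkinje cells, its only output neurons, and granule cells, which are very numerous and send their axons to the Purkinje cell dendrites. Pcp2, Car8 and Calb1 are known as Purkinje cell genes, Gabra6 and Cbln3 as granule cell genes, and Cbln1 as a protein that granule cells secrete to organize their synapses with Purkinje cells. Neurod1, Zic1, En2 and Barhl2 encode transcription factors of cerebellar or hindbrain development. Several of these genes are also known from other places, Calb1 from cortical, hippocampal and striatal neurons, Neurod1 from the dentate gyrus and Zic1 from the meninges, whereas Pcp2, Cbln3 and Gabra6 are regarded as close to specific for the cerebellum within the brain.

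Values are normalized counts, that is read counts per gene that the authors had scaled so that libraries can be compared, and they summed to between 33284951 and 33748623 per mouse. Levels of different genes were compared as per-length levels, the normalized count per kb of transcript, scaled to the same total in each mouse. Slc6a20a itself was measured at 679 ± 70.1 normalized counts in WT mice, at 345 ± 29.1 in HT mice and at 64.5 ± 9.95 in HM mice (SD, n = 4 each), with no overlap between genotypes. In bulk RNA, fewer cells of a type and less RNA per cell cannot be told apart.

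By per-length level, the 9 genes fell into 5 genes at moderate to low levels and 4 genes near the lower end of the table. Calb1 stood at 60.1 (range over 12 mice 52.2 to 66.6), Zic1 at 28.4 (26.1 to 30.9), Cbln1 at 18.8 (16.9 to 20.5), Neurod1 at 7.84 (6.74 to 8.96) and Car8 at 4.84 (4.17 to 5.48). The ranges of these 5 did not overlap with those of their neighbours in this order. Below them came Pcp2 at 1.71 (0.728 to 3.40), Barhl2 at 1.21 (0.779 to 1.501), En2 at 0.784 (0.365 to 0.959) and Cbln3 at 0.405 (0.261 to 0.527), each overlapping with the next. The place of Pcp2 depended on the length used for it: its longest transcript in place of the median transcript gave 0.728, which put it in place 8 instead of 6, behind Barhl2 (1.45) and En2 (0.939).

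Against the whole-brain label, the genes regarded as most specific for the cerebellum were detected but low. Per length, Pcp2 (1.71) and Cbln3 (0.405) stood at percentile 26.3 and 9.25 of all genes. Their mean normalized counts were 13.0 and 18.8, in a table whose lowest row mean was 4.53, and neither gene was listed at 0 in any mouse. The 9 cerebellar genes had a median percentile of 38.9, while the median was 73.9 for a list of 12 genes of cortical and hippocampal excitatory neurons, whose lowest per-length level was 10.2, and 89.4 for a list of 10 striatal genes, whose lowest was 14.7. Wider lists of cerebellar genes were not as low, with a median percentile of 63.3 for 17 other Purkinje cell genes, 54.4 for 14 other granule cell genes and 62.6 for 10 genes of other cerebellar cells. Their lowest members, picked with their values in view, were Fat2, a protocadherin-like protein of granule cell axons (0.052 per length, percentile 0.0405), Ppp1r17, a phosphatase inhibitor of Purkinje cells (0.856, percentile 17.9), and Lmx1a (0.415). How much cerebellum the libraries held was not tested, and no share was calculated, because no library of cerebellum alone was used that would give the level of these genes in undiluted cerebellum.

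**Figure D1:**
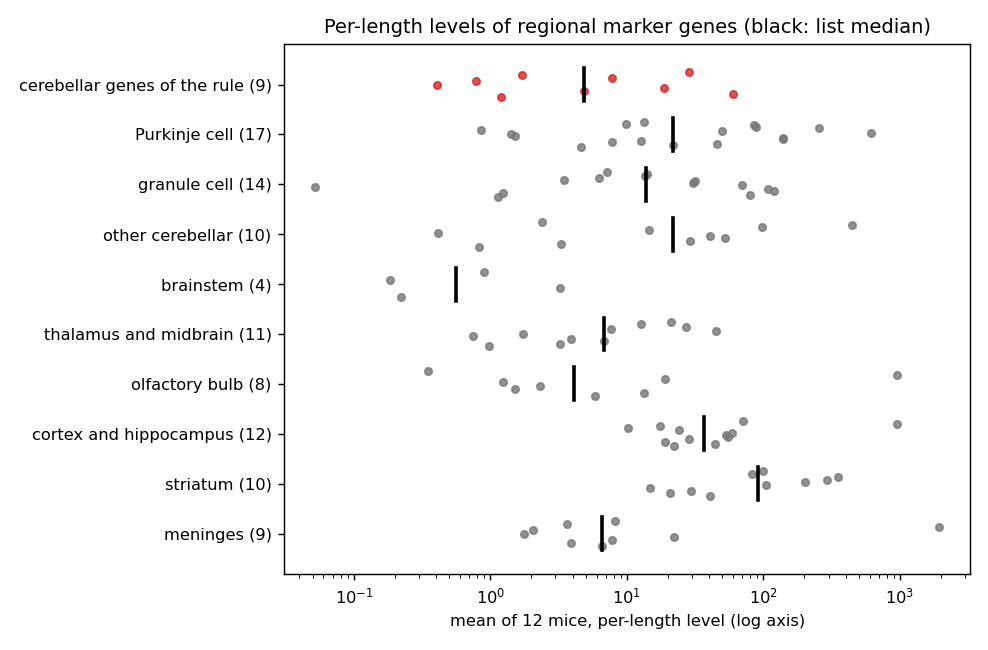
Per-length levels (horizontal log axis, mean of 12 mice) of the genes in each regional list, with the number of matched genes in brackets, the 9 cerebellar genes of the rule in red and list medians as black bars. The cerebellar genes span 0.405 to 60.1, while cortical and hippocampal genes start at 10.2 and striatal genes at 14.7.

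Among the Purkinje cell genes, Pcp2 (ENSMUSG00000004630, chromosome 8, 3623371 to 3625545, minus strand), which encodes a regulator of Gi and Go proteins, had few reads. Its normalized counts were 26.4, 16.0, 5.54 and 15.2 in the WT mice, 17.5, 11.8, 9.13 and 16.6 in the HT mice and 7.21, 7.96, 13.0 and 9.29 in the HM mice. The highest and the lowest value were both from WT mice, and all 3 genotypes overlapped. Of the 1828 exonic bases of Pcp2, 941 (51.5%) also belong to exons of Pet100, a mitochondrial assembly factor gene on the opposite strand (chromosome 8, 3621548 to 3625848) with a mean of 281 normalized counts. The paper names the library kit without saying whether it marked strand. Reads from this stretch may therefore not be told apart by strand, and the level of Pcp2 is uncertain.

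Car8 (chromosome 4, 8143362 to 8239041, minus strand) encodes a carbonic anhydrase-like protein without enzyme activity that binds the inositol trisphosphate receptor Itpr1. It was measured at 287, 278, 249 and 310.3 normalized counts in the WT mice, 242, 311, 294 and 275 in the HT mice and 259, 235, 265 and 289 in the HM mice. Calb1 (chromosome 4, 15881264 to 15908064, plus strand), a calcium buffer, was the highest of the 9 genes. Its counts were 3328, 3795, 3518 and 3652 in the WT mice, 3703, 4063, 3849.9 and 3786 in the HT mice and 3684, 3688, 3537 and 4165 in the HM mice. Within mice, Calb1 was on average 42.0 times as high as Pcp2 per length (range 15.3 to 77.4). With the longest transcripts of both genes the ratio was 98.9.

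Among the granule cell genes, the pair of cerebellins stood far apart in level. Cbln1 (chromosome 8, 87468405 to 87472609, minus strand) had 696, 552, 596 and 576 normalized counts in the WT mice, 603, 672, 611 and 593 in the HT mice and 660.4, 621, 644 and 631 in the HM mice. Cbln3 (chromosome 14, 55878913 to 55884392, minus strand), whose protein is known to be secreted only in complex with Cbln1, had 16.3, 13.6, 22.6 and 24.5 in the WT mice, 24.1, 20.5, 17.8 and 17.6 in the HT mice and 13.1, 12.1, 21.5 and 21.7 in the HM mice. The ratio of Cbln1 to Cbln3 per length was 49.0 on average and lay between 32.9 and 72.1 in the 12 mice. Genotypes overlapped for both genes.

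Neurod1 (chromosome 2, 79452521 to 79456751, minus strand), a factor of neuronal differentiation, had 307, 329, 279 and 306 normalized counts in the WT mice, 270.3, 315, 333 and 357 in the HT mice and 352, 321, 302 and 306 in the HM mice. Its exons share 201 bases (7.37%) with those of Cerkl on the same strand, a gene with a mean of 55.4 normalized counts. Zic1 (chromosome 9, 91358058 to 91365810, minus strand), a zinc finger factor, had 1660.4, 1593, 1679 and 1924 in the WT mice, 1759.8, 1847, 1856 and 1746 in the HT mice and 1836, 1627, 1894 and 1718 in the HM mice. It shares 60 exonic bases (1.05%) with Zic4 on the opposite strand.

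The remaining pair of homeobox genes was low in every mouse. En2 (chromosome 5, 28165694 to 28172166, plus strand), which patterns the midbrain and cerebellum, had 49.8, 32.1, 46.9 and 44.7 normalized counts in the WT mice, 42.4, 29.7, 46.0 and 49.6 in the HT mice and 48.7, 34.6, 19.0 and 46.4 in the HM mice. Barhl2 (chromosome 5, 106452523 to 106458166, minus strand) had 46.4, 37.9, 43.4 and 26.7 in the WT mice, 43.0, 30.6, 48.9 and 48.9 in the HT mice and 48.7, 29.1, 37.8 and 51.4 in the HM mice. HM replicate 3 was the lowest mouse for En2 and WT replicate 4 for Barhl2, and no genotype stood apart.

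**Figure D2:**
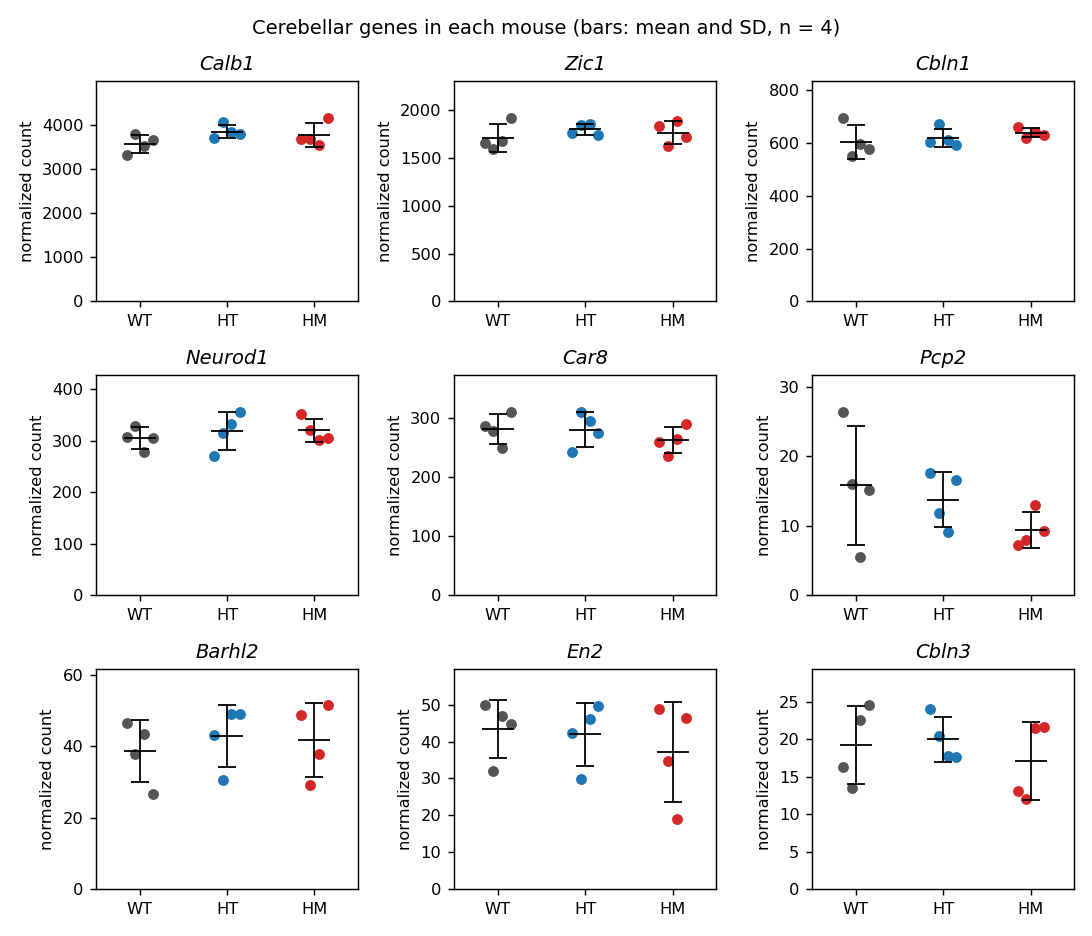
Normalized counts (vertical axes from 0, a scale of its own for each gene) of the 9 cerebellar genes in the 4 WT, 4 HT and 4 HM mice, 1 point per mouse, with the mean and SD as bars. Points of the 3 genotypes overlap for every gene, and the spread is widest in relation to the mean for Pcp2.

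Within their families, the cerebellar genes were in most cases not the highest members. Per-length levels of the cerebellins were 26.9 for Cbln2, 18.8 for Cbln1, 16.4 for Cbln4 and 0.405 for Cbln3. Neurod2 and Neurod6, factors of cortical and hippocampal neurons, were 6.85 times (range 5.65 to 7.63) and 7.62 times (6.50 to 8.99) as high as Neurod1, and Neurod4 was at 0.361. The related proteins Car11 and Car10 were 36.4 and 14.7 times as high as Car8, and at least 32.5 and 11.8 times as high in every mouse. Among calcium buffers, Calb1 was at 0.685 times the level of Pvalb (0.471 to 0.836) and at 0.751 times that of Calb2 (0.639 to 0.906), and lower than either in every mouse.

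The Zic family and the homeobox pairs had another order. Zic1 was 2.04 times as high as Zic2 (1.83 to 2.23), and Zic4 and Zic5 were at 7.19 and 2.43. En2 was 2.52 times as high as En1 on average, with a range of 0.877 to 5.68 that includes equal levels. Barhl1, known from granule cells, and Barhl2 were at 1.148 and 1.21, with overlapping ranges. Of other alpha subunits of the GABA-A receptor, Gabra4 was at 109, Gabra3 at 105, Gabra5 at 55.2 and Gabra2 at 30.8, and Gabrd, the delta subunit that pairs with Gabra6 in granule cells and with Gabra4 in the forebrain, had 69.7.

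**Figure D3:**
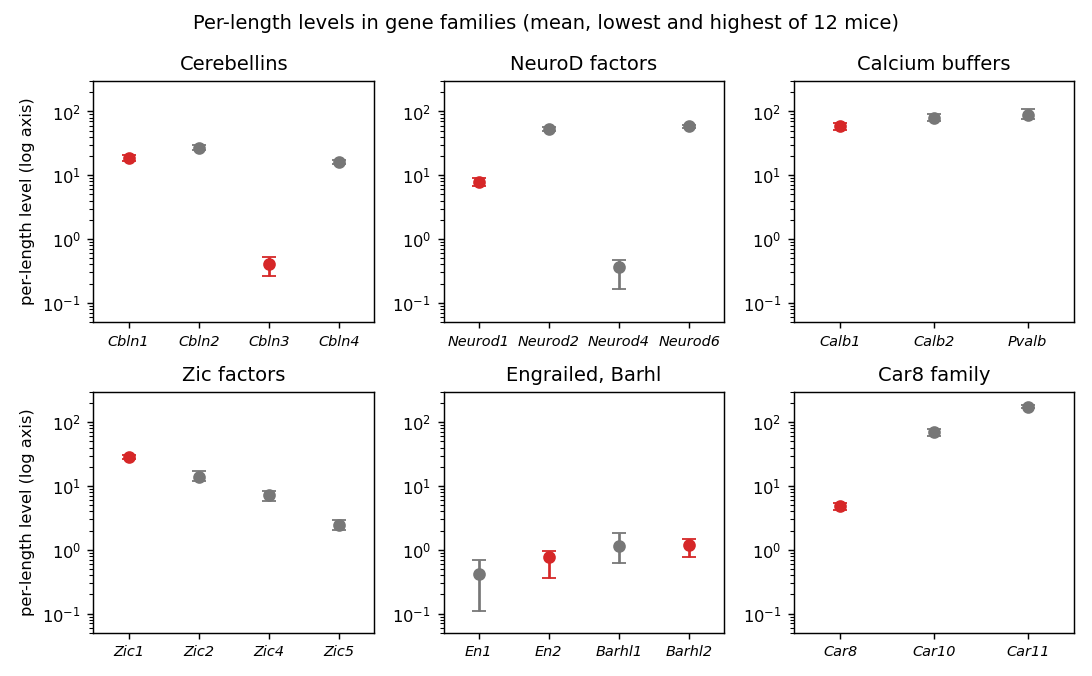
Per-length levels (vertical log axis, the same in each panel) of family members, with the mean as a point and the lowest and highest of 12 mice as bars, and the cerebellar genes of the rule in red. Cbln3 lies 49.0 times below Cbln1, Neurod1 lies below Neurod2 and Neurod6, and Car8 lies below Car10 and Car11.

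Genes for proteins that the cerebellar proteins act with were well measured. Per length, the neurexins Nrxn2 and Nrxn3 were at 176 and 162, the delta receptor Grid1 at 27.4, and Itpr1, the target of Car8, at 140.0. The G protein genes Gnao1, Gnai2 and Gnai1 were at 489, 179.7 and 110.3, and the receptor subunit Gabrb2 was at 111.

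Longer lists of cerebellar genes held both high and low members. Of 18 other genes enriched in Purkinje cells, 17 were matched, with a median per-length level of 21.7 and a range from 0.856 (Ppp1r17) to 611 (Pcp4). Pcp4 and Itpr1 (140.0) were among the highest of this list, and both are also known from forebrain neurons. At its low end stood Ppp1r17 and Lhx5 (1.42). Of 14 other granule cell genes, all matched, Chn2 (120.4), Etv1 (109) and Calb2 (80.4) were highest and Fat2 (0.052) and Barhl1 (1.148) lowest, around a median of 13.7. Of 10 genes of Bergmann glia, cerebellar interneurons and unipolar brush cells, Slc1a3 (447), an astrocyte glutamate transporter, Prkcd (98.3) and Hopx (52.2) were highest and Lmx1a (0.415) and Eomes (0.827) lowest, around a median of 21.9.

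Genes of the neighbouring brainstem were low as well. Of 12 genes of hindbrain neurons, 4 were matched. Per length, Glra1, a glycine receptor subunit, was at 3.26, Tph2, the serotonin synthesis enzyme, at 0.892, Dbh, the noradrenaline synthesis enzyme, at 0.220, and Slc6a5, the glycine transporter of glycinergic neurons, at 0.185. Their median percentile by per-length level was 11.1. The other 8 were not analysed here. Genes of the thalamus and midbrain, 11 of 11 matched, had a median percentile of 43.0, from Slc17a6 (44.6), Tcf7l2 (27.0) and Tnnt1 (21.1) down to Gata3 (0.981) and Pax7 (0.745). Those of the olfactory bulb, 8 of 8 matched, had a median percentile of 35.6, from Slc17a7 (944), Reln (19.0) and Doc2g (13.4) down to Omp (1.24) and Tbx21 (0.347). In the forebrain lists the highest were Slc17a7, Tbr1 (71.4) and Neurod6 (59.3) for cortex and hippocampus, with Rorb (10.2) lowest, and Ppp1r1b (351), Penk (292) and Pde10a (203) for the striatum, with Drd1 (20.9) and Gpr6 (14.7) lowest.

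The spread between mice was wider for the genes of low counts than for those of higher counts. The SD of log2 values within genotypes was 0.585 for Pcp2, 0.425 for En2, 0.350 for Cbln3 and 0.343 for Barhl2, against 0.136 for Car8, 0.127 for Neurod1, 0.099 for Cbln1, 0.092 for Zic1 and 0.082 for Calb1. The median over 18006 genes with a mean of at least 10 was 0.119. Genes of a like mean count (within 1.5-fold) had a median SD of 0.489 for the level of Pcp2, 0.301 for that of En2, 0.425 for that of Cbln3 and 0.301 for that of Barhl2. Cbln3 thus lay below the median of genes of its level, and Pcp2, En2 and Barhl2 above it.

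As a set, the 9 genes showed no common rise and fall from mouse to mouse. Over the 36 pairs, the correlation of the log2 values, each taken as the difference from the mean of its genotype, had a median r of 0.018 over 12 mice, with a range from -0.705 to 0.539, and 18 pairs were above 0. As all values come from the same 12 libraries, these are given without a test. With 4 of the 9 genes at few counts, a median r near 0 cannot show that shared variation was absent. WT replicate 1 was the highest of the 12 mice for 3 genes (Pcp2, Cbln1 and En2), while WT replicate 4 (Cbln3 and Zic1) and HM replicate 4 (Barhl2 and Calb1) were highest for 2 each.

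WT replicate 1 and HM replicate 4 also stood apart in the wider lists. Of 54 genes in the cerebellar and brainstem lists, WT replicate 1 had the highest value for 14 (25.9%) and HM replicate 4 for 13 (24.1%), while over 18006 genes the shares were 14.9% and 8.03%. Tph2 was at 88.3 and 73.9 normalized counts in these mice and between 14.1 and 33.5 in the other 10. Slc6a5 was at 44.5 in WT replicate 1 and between 7.42 and 28.3 in the others. Fat2 was at 24.7 in WT replicate 4 and 28.7 in HM replicate 4 and between 3.28 and 12.1 in the other 10. WT replicate 1 also had the highest ratio of short to long transcripts, with genes under 1000 bases 0.183 higher on the log2 scale relative to long genes than the mean of all mice, with long meaning over 5000 bases, against -0.081 to 0.045 in the other mice. The part of RNA quality or dissection in these values was not tested.

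Of 99 relations between the 9 genes and 11 other measures per mouse (list means, the transcript length ratio and Pet100), 1 passed correction. Zic1 rose and fell with a list of 9 genes of meningeal fibroblasts (Pearson r = 0.887, permutation p = 1.5e-04, BH-adjusted p = 0.0148, n = 12 mice). Spearman's rho was 0.923 (BH-adjusted permutation p = 0.00693). Without the pair of mice farthest from the median of the meningeal list, r was 0.856, and leaving out each mouse in turn gave 0.861 to 0.908. WT replicate 4 was highest in both measures, with 1924 normalized counts of Zic1. The meningeal list was led by Ptgds (1942 per length), Dcn (22.3) and Slc6a13 (8.18), and Lum (2.06) and Foxc1 (1.76) were lowest. Its summed counts ranged from 23545 to 32644 in WT, 23534 to 26373 in HT and 22377 to 26487 in HM mice.

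Relations of further Zic genes with the meningeal list were computed after this had been seen. Of 4 relations, 3 are reported here, so no direction is given for the family. Over 12 mice, r was 0.799 for Zic2 (permutation p = 0.00151, BH-adjusted over the 4 relations 0.00604), 0.714 for Zic4 (0.00923 and 0.0185) and 0.671 for Zic5 (0.0174 and 0.0232). Spearman's rho was 0.650 for Zic2 (permutation p = 0.0261), 0.664 for Zic4 (0.0221) and 0.657 for Zic5 (0.0244). Without the pair of mice farthest from the median, r was 0.471 for Zic2, 0.473 for Zic4 and 0.486 for Zic5.

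**Figure D4:**
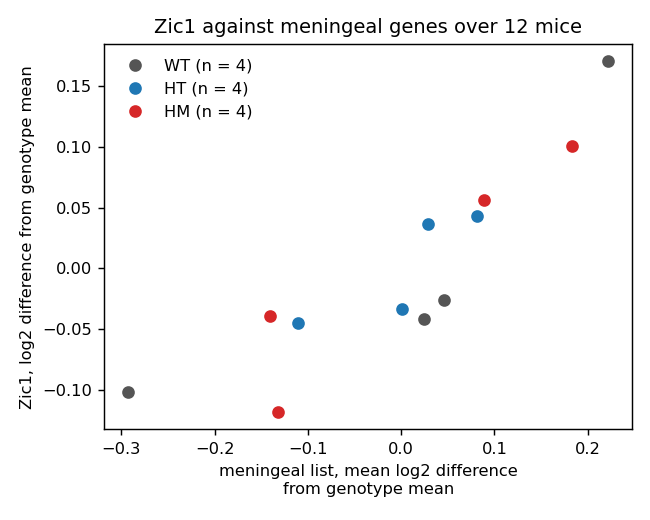
Log2 difference of Zic1 from the mean of its genotype (vertical axis) against the mean log2 difference of 9 meningeal genes (horizontal axis), 1 point per mouse. The 12 points rise from WT replicate 2 at the lower left to WT replicate 4 at the upper right, with r = 0.887.

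The Purkinje, granule and other cerebellar lists gave no relation with any of the 9 genes that passed correction. The strongest was that of Car8 with the granule cell list (r = 0.813, permutation p = 0.00164, BH-adjusted p = 0.0812, rho = 0.818 with permutation p = 0.00203 and BH-adjusted p = 0.1005, r without the farthest pair of mice 0.731, n = 12). Pcp2 had r = 0.324 with the other Purkinje cell genes (permutation p = 0.307, BH-adjusted p = 0.767, rho = 0.357 with permutation p = 0.255, r without the farthest pair 0.615). Cbln1 had r = 0.763 with the transcript length ratio (permutation p = 0.00668, BH-adjusted p = 0.189, rho = 0.524 with permutation p = 0.0846), which fell to 0.176 without the farthest pair of mice and so rests on them.

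The genes whose pattern over the 12 mice was most like that of Pcp2 came from outside the cerebellar lists. Among 13126 genes whose mean was 100 normalized counts or more, the highest r was that of Tor1a (0.971), followed by Timm10 (0.962), Creld1 (0.938), Ptprr (0.935), Fbxo45 (0.916), Krr1 (0.908), Zscan29 (0.902) and Cops5 (0.891). None of the 50 most alike was among the 38 genes of the cerebellar lists that were searched. With only 38 such genes among 13126, none would be likely in any 50 genes, so this count says nothing about Pcp2. Pet100, which shares exonic bases with Pcp2, had r = 0.030. These values describe 12 libraries and a gene of few counts, and no test was made.

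The comparison of genotypes asked whether loss of 1 or both copies of Slc6a20a went with other levels of the cerebellar genes. None of the 9 genes passed the threshold of an adjusted p of 0.05 in limma in any comparison. Over all genes tested, 0.00555% passed for HT/WT, 0.0111% for HM/WT and 0.00556% for HM/HT. At an unadjusted p under 0.05 there was 1 of 9 genes for HT/WT (all genes 6.42%) and 0 of 9 for both HM/WT (6.99%) and HM/HT (3.74%). In no comparison did the values of any of the 9 genes fail to overlap between genotypes, against 3.73%, 4.22% and 2.38% of all genes. The median log2 difference of the 9 genes was 0.058 for HT/WT, 0.047 for HM/WT and -0.048 for HM/HT.

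The gene with an unadjusted p under 0.05 was Calb1, with 3850.5 ± 154 normalized counts in HT and 3573 ± 199 in WT mice (SD, n = 4 each). The log2 difference was 0.11 (95% interval 0.004 to 0.213, adjusted p = 0.770 by limma, two-sided exact permutation p = 0.0857). With 4 mice against 4, the smallest p that the permutation test can give is 0.0286. For the 5 genes at higher counts, the intervals of all 3 comparisons lay between -0.31 and 0.27 on the log2 scale. The 4 low genes were measured with less precision. Pcp2 was at 9.37 ± 2.58 in HM against 15.8 ± 8.53 in WT mice, a log2 difference of -0.55 with a 95% interval of -1.46 to 0.35 (adjusted p = 0.809, exact permutation p = 0.314). Without WT replicate 1 the difference was -0.26 and without WT replicate 3 it was -0.95, with a smallest adjusted p of 0.674 by limma over the 8 mice left out in turn. With 4 mice per genotype, true differences anywhere within these intervals remain possible. The intervals are not limits of detection.

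**Figure D5:**
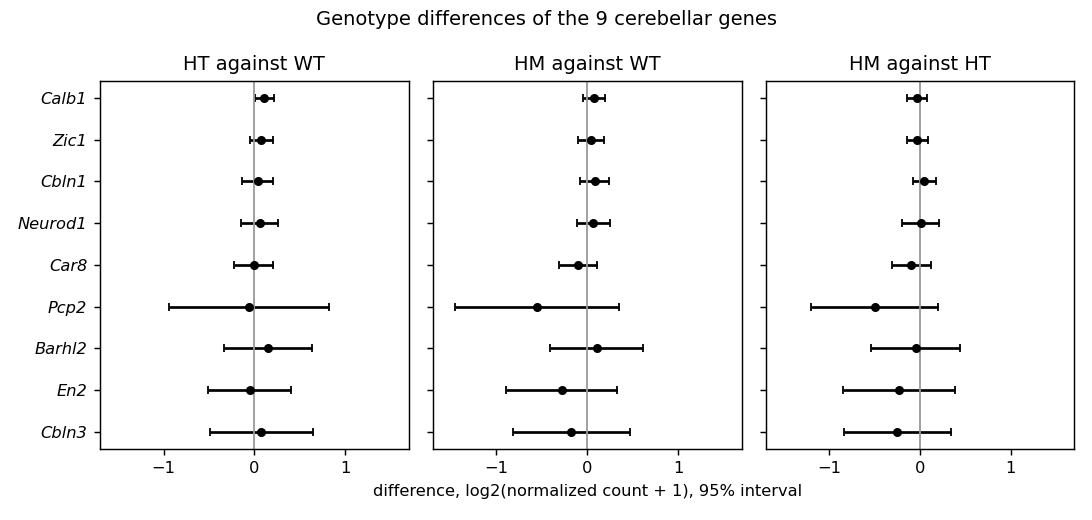
Log2 differences of the 9 cerebellar genes (horizontal axis, log2 of normalized count + 1) for the 3 comparisons, with 95% intervals from limma, n = 4 mice per genotype. Every interval includes 0 except that of Calb1 for HT/WT (0.004 to 0.213), and those of Pcp2, Barhl2, En2 and Cbln3 are the widest.

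The wider cerebellar lists held no gene past the adjusted threshold either. At an unadjusted p under 0.05, 5 of 17 Purkinje cell genes were found for HT/WT (6.42% of all genes) and 5 of 17 for HM/WT (6.99%), both against the same WT mice. Values did not overlap between genotypes for 4 of 17 genes in either comparison (3.73% and 4.22% of all genes). They included Atp2a3 and Lhx1 with higher means and Pvalb and Gng13 with lower means in the mutants. The log2 differences of Pvalb, a calcium buffer that is also made by forebrain interneurons, were -0.19 and -0.22 for HT and HM/WT (adjusted p = 0.770 and 0.655 by limma), and those of Lhx1, a homeobox factor of Purkinje cells, were 0.50 and 0.54 (adjusted p = 0.768 and 0.664). WT replicate 1 was the highest of the 12 mice for both Pvalb and Gng13. For HM/HT, 1 of 17 was found (3.74% of all genes), and 0 of 17 did not overlap (2.38%). The median differences of the Purkinje list were 0.046, 0.046 and -0.018 for HT/WT, HM/WT and HM/HT.

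Of the 14 granule cell genes, 0, 3 and 1 had an unadjusted p under 0.05 for HT/WT, HM/WT and HM/HT, and of the 10 other cerebellar genes 0, 2 and 1, against 6.42%, 6.99% and 3.74% of all genes. Values did not overlap for 0, 1 and 0 granule cell genes and for 0, 1 and 1 of the others (3.73%, 4.22% and 2.38% of all genes). The granule genes were Il16, Calb2 and Grm4, and the others Grm2 and Eomes, all with higher means in HM mice. Eomes had a log2 difference of 1.39 for HM/WT (adjusted p = 0.553 by limma). Eomes and Calb2 are also made by cells of the olfactory bulb, and the olfactory bulb list moved alongside. Of its 8 genes, all had higher means in HM than in WT mice and 6 had an unadjusted p under 0.05 (6.99% of all genes), with 1 of 8 not overlapping (4.22%). For HM/HT, 7 of 8 had higher means and an unadjusted p under 0.05 (3.74% of all genes), and 6 of 8 did not overlap (2.38%). None of its genes passed the adjusted threshold in limma. The mean of its centred log2 values ranged from 0.067 to 0.811 in HM, -0.538 to 0.312 in WT and -0.568 to -0.251 in HT mice, and none of its genes was listed at 0 in all mice. Its part in the values of Eomes and Calb2 was not tested. Of the 13 partner genes, 4, 2 and 0 had an unadjusted p under 0.05 for HT/WT, HM/WT and HM/HT, among them Gabrb2 and Grid1 for HT/WT and Gnao1 for HM/WT (6.42%, 6.99% and 3.74% of all genes). Values did not overlap for 3, 2 and 0 of the 13 (3.73%, 4.22% and 2.38%), and none passed the adjusted threshold in limma.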

How the data were processed

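RNA of whole brains from 12 mice was sequenced by the authors. The deposited table holds normalized counts, used here as a signal value per gene and mouse. Per the labels and the methods, the authors quantified reads with Salmon 1.1.0 on GRCm38 with GC correction, summed transcripts to genes and normalized with DESeq2 1.30.1. Reads before normalization were not recovered, so no count model was fitted and depth is known only as the sum of normalized counts. Column names gave genotype and mouse.

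Symbols, positions and lengths came from GENCODE M21 on GRCm38, where 19758 of 19775 identifiers were found. Per-length levels used the median length of basic transcripts. Genes whose mean over the 8 mice of a comparison reached 10 were tested with limma 3.58.1 (R 4.3.3), with a mean-dependent variance prior, after adding 1 and taking log2. Adjustment was by Benjamini-Hochberg (BH) over all genes tested, with a threshold of 0.05. Fold changes on this scale understate changes of low genes. Single genes were also tested by two-sided exact permutation. List means average log2 values centred per gene. For the 99 relations, values were centred by genotype and tested with 100000 permutations (numpy 2.4.6, scipy 1.17.1, pandas 2.3.3, Python 3.11.15). The limma step was tested on simulated data.

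The members and lists were chosen with earlier results of these data known. Named were all 10 cerebellar genes, the genes of their families and partners by level, the 3 highest and 2 lowest genes of each other list, any gene past the adjusted threshold, and the 8 genes most like Pcp2. Fat2, Ppp1r17 and other genes named beside a count or a mouse were picked with their values in view. The alternatives tried were 0.1 as pseudocount, all rows without filtering, only rows reaching 10 in every mouse, 1 fit of all 12 mice, a replicate block, a block for mice with the same start of the animal number, quantile normalization, no trend in the prior and leaving out each mouse. Longest transcripts, and leaving out mice for Zic1, were added after seeing the data. Some genes that this rule takes in are not reported here.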

Additional observations from a re-analysis of the deposited data

Results flagged for a closer look

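Of 54 groups of 4 mice tested for a value that stands apart by the ratio of its gap to the range, 1 was past Dixon's 95% critical value, a number that chance gives in about 1 of 20 groups. It was the mean of the brainstem genes in HT replicate 2, with a ratio of 0.833. The mean of the centred log2 values of Tph2, Slc6a5 and Glra1 was -0.407 in this mouse and 0.006, 0.004 and -0.063 in the other HT mice. None of the 9 cerebellar genes and none of the cerebellar lists was past it.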

How the results depend on the processing

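No cerebellar gene was called in any comparison under any alternative run. Of 213 values of single genes under the other alternatives, 201 kept their direction and side of the threshold and 12 changed sign (smallest adjusted p 0.638 by limma). With mice left out, 193 of 216 kept both and 23 changed sign (smallest adjusted p 0.666). Median differences of the 9 genes with mice left out ranged from 0.00792 (without WT replicate 2) to 0.063 for HT/WT, from -0.049 (without WT replicate 4) to 0.065 for HM/WT and from -0.143 (without HM replicate 4) to -0.012 for HM/HT.

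The same replicate numbers did not pair the mice (r of deviations -0.066 to 0.087, over 0.1 for 0 of 4 numbers in each comparison), and 1, 1 and 0 of 4 mice correlated best with their own number for HT/WT, HM/WT and HM/HT. With the replicate block, 0 cerebellar genes were called in each comparison, and over all genes 1, 1 and 1. The block for the start of the animal number turned Pcp2 (0.17), Car8 (0.011) and En2 (0.093) for HT/WT, Cbln3 (0.51) and Neurod1 (-0.067) for HM/WT, and Cbln1 (-0.013), Car8 (0.076), En2 (0.38), Barhl2 (0.49) and Calb1 (0.10) for HM/HT, whose median became 0.066. These values rest on the mice that share a number start with the other genotype. Quantile normalization turned Pcp2 (0.0024) and Car8 (0.0029) for HT/WT. The cause was not tested. Longest transcripts put Pcp2 in place 8 of the per-length order.

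With 1 mouse left out, the differences that changed sign ranged, for HT/WT, from -0.45 to 0.24 for Pcp2, -0.061 to 0.063 for Car8, -0.0042 to 0.11 for Cbln1, -0.070 to 0.20 for Cbln3, -0.19 to 0.099 for En2 and -0.0098 to 0.30 for Barhl2, for HM/WT from -0.058 to 0.26 for Barhl2, and for HM/HT from -0.20 to 0.11 for Barhl2, -0.38 to 0.053 for En2, -0.067 to 0.066 for Neurod1 and -0.063 to 0.010 for Zic1. Over all genes, calls for HT/WT were 1, and 0 without a trend in the prior (limma). For HM/WT they were 2, and 1 without a trend and 3 with 1 fit of all mice. For HM/HT they were 1, and 2 without a filter and 3 with the animal-number block. The 4 low genes rest on few reads, which limits their precision.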
